A study of Mus musculus with 6 samples.

Results

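The pro-survival branch of the BCL2 family was described in mouse B-lineage acute lymphoblastic leukaemia with and without the microRNA miR-182. The members were the 7 rows of the count table with the symbols Bcl2, Bcl2l1, Mcl1, Bcl2l2, Bcl2a1a, Bcl2a1b and Bcl2a1d, out of 55487 genes, and all 7 were found. Of these, 5 had enough counts to be tested, and Bcl2a1a and Bcl2a1b did not. RNA was sequenced from bone marrow cells sorted for GFP and B220, a B-lineage surface protein, in a transplantation model that used mice aged 6 to 8 weeks. The 6 libraries were 3 of wild-type genotype (WT, replicates 1, 3 and 4) and 3 of miR-182 knockout genotype (KO, replicates 2, 3 and 4), all labelled day 0. The series induced B-lineage disease with BCR-ABL (P190) and T-lineage disease with Notch, and every library here carries the B220 sort. The labels do not say whether replicates were separate mice or separate leukaemias, so p-values measure only the spread between these libraries. The extract protocol is the same text for every sample and writes its sort as 182WT/182NC.

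Proteins of this branch sit on the outer mitochondrial membrane and hold the effectors BAX and BAK in check. BH3-only proteins, which rise under stress, bind into a groove on the pro-survival proteins and release the effectors, after which cytochrome c leaves the mitochondrion and caspases are switched on. BCL2 is the target of venetoclax, which the series title pairs with hypomethylating agents, and the title names BCL2 as a target of miR-182. MCL1 has a short-lived protein and is needed by many blood cells, lymphoid and myeloid. Bcl2l1 encodes BCL-XL, Bcl2l2 encodes BCL-W, and the Bcl2a1 genes encode A1, which NF-kB induces in blood cells and of which the mouse has several near-identical copies.

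The sequences that bear on these questions are the microRNA, its possible sites in the family, and the start of the A1 coding sequence. Mature miR-182-5p, from RefSeq on GRCm38.p6 (chr6:30165962-30165986, minus strand), is shown with the seed, bases 2 to 8, in capitals.
mmu-miR-182-5p: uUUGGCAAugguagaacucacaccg
The 7mer-m8 match to this seed is TTGCCAA, searched on the transcript strand in the longest annotated 3′ untranslated region of each gene in GENCODE transcripts on GRCm38. Bcl2 held 1 match, at base 307 of 5086, and Mcl1 held 1, at base 1122 of 2353, while Bcl2l1, Bcl2l2 and the A1 genes held 0. Both sites are shown with the match in capitals, Bcl2 at chr1:106542945-106542974 (minus strand) and Mcl1 at chr3:95661928-95661957 (plus strand).
Bcl2: gaaaaccgaaccaggaaTTGCCAAgaaacg
Mcl1: ttcttgtctactaaggaTTGCCAAgctttg
Such a match is common: 11.9% of 11966 tested genes with an annotated 3′ untranslated region held 1 or more. Of the 2480 whose region was between 2543 and 10172 bases long, a window set around the Bcl2 region, 27.8% did. The Mcl1 region, at 2353 bases, lies outside that window. A match describes the letters only and is not evidence of binding.

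The A1 genes are shown because their counts depend on how reads from near-identical copies were assigned. Their coding sequences of 519 bases differed at 11 positions between Bcl2a1a and Bcl2a1b, 7 between Bcl2a1a and Bcl2a1d, and 6 between Bcl2a1b and Bcl2a1d. The first 60 coding bases hold 6 of the 12 positions at which any copy differs, given in capitals (GRCm38, chr9:88957051-88957110, plus strand; chr9:89199360-89199419, plus strand; chr9:88731660-88731719, minus strand).
Bcl2a1a: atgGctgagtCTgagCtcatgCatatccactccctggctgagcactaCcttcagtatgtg
Bcl2a1b: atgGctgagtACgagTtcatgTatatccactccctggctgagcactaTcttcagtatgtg
Bcl2a1d: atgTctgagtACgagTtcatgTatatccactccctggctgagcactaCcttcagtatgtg
Of all 75-base windows of the transcript, 55.2% in Bcl2a1a, 68.4% in Bcl2a1b and 67.6% in Bcl2a1d also occur in a transcript of another gene. A further overlap touches Bcl2a1b, where 49.1% of the exon bases belong also to the same-strand gene Gm29094, listed with 0 counts in all 6 libraries. Windows of Mcl1 and Bcl2l1 were found in no other gene. In Bcl2 6.09% of exon bases overlap the opposite-strand D630008O14Rik and in Bcl2l2 13.3% overlap the same-strand Gm20521, both with 0 counts in every library.

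Total counts ran from 17704382 to 29237035 per library, and a count of 3, taken as the floor, equalled 0.103 to 0.169 CPM (counts scaled to a common library total). The deleted microRNA itself, Mir182, had 0 counts in all 6 libraries, so these mRNA libraries do not check the genotype labels. Levels are CPM after TMM scaling, which adjusts library totals by a trimmed mean of log ratios over genes. It takes most genes as unchanged or their changes as balanced. The TMM factors were 0.932 to 0.979 in WT and 1.02 to 1.05 in KO. B-lineage markers were present in every library, Pax5 for example between 843 and 1458 CPM. Of 14481 genes tested with edgeR's quasi-likelihood test, 7599 changed at an adjusted p below 0.05, a background of 52.5% of genes called. Of those calls 45.6% were higher in KO, or 56.5% when library totals alone set the scale. The background was 28.5% called lower and 23.9% called higher in KO, and in 64% of the tested genes the genotypes did not overlap. Markers of several other blood cells, though not all, stood higher in WT. The summed level of 17 neutrophil markers was 17412 to 42477 CPM in WT and 1424 to 7241 CPM in KO, and that of 14 monocyte and macrophage markers 2035 to 5589 CPM in WT and 499 to 998 CPM in KO. T cell markers (60.8 to 118 against 13.5 to 18.1 CPM) and NK cell markers (50.3 to 89.9 against 5.11 to 7.57 CPM) were also higher in WT at low levels, as were mast cell and basophil markers (6.52 to 21.5 against 1.63 to 2.19 CPM). Much of the T cell sum was Lck, at 45.2, 105 and 44.0 CPM in WT. Much of the NK cell sum was Klrb1c, at 56.8, 43.2 and 47.8 CPM in WT. Only 8 of 13 T cell markers and 3 of 8 NK cell markers had enough counts to be tested. The genotypes overlapped for the summed plasmacytoid dendritic cell markers (134 to 294 against 149 to 214 CPM) and for erythroid markers (21.6 to 207 against 85.6 to 110 CPM). The plasmacytoid sum was mostly Spib, at 117, 287 and 118 CPM in WT and 188, 210 and 140 CPM in KO. Of the 5 plasmacytoid markers tested 0 rose, 2 fell (Runx2 by 2.05 and Pacsin1 by 1.17 in log2) and 3 did not pass. In a bulk library, fewer cells of a type and less RNA per cell cannot be told apart.

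Mcl1 was the most abundant member in every library and the only member that passed the test, and its level fell by 36.7% in KO. On the log2 scale it fell by 0.66 (SE 0.17, adjusted p = 0.0151, edgeR quasi-likelihood test), a fold of 0.633 with a 95% confidence interval of 0.481 to 0.834. Bcl2, Bcl2l1 and Bcl2l2 did not pass, and each had overlapping genotypes. Of the 5 members tested 0 rose and 1 fell, against the background of 52.5% called, with a median log2 fold change of -0.14 beside -0.0015 over all genes tested. That median is the value of Bcl2, which did not pass.

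**Figure D1:**
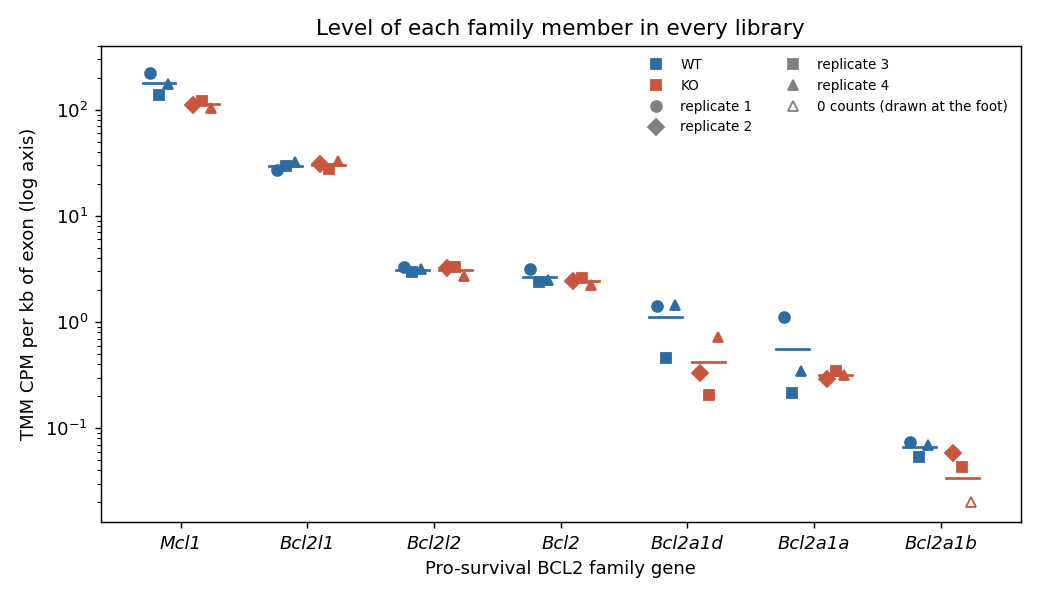
Level of each family member in TMM CPM per kb of exon (vertical, log axis), with a point for each library, a horizontal bar for the mean of 3 libraries, and open symbols for 0 counts. Mcl1 lies highest, from 105 to 222, Bcl2l1 between 27.1 and 32.7, and the A1 genes lie at the foot of the plot.

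Mcl1 (ENSMUSG00000038612, chromosome 3 from 95658788 to 95663176, plus strand, GRCm38.p6) had 12493 counts in WT replicate 1, 10794 in replicate 3 and 10383 in replicate 4, beside 7952, 11790 and 10983 in KO replicates 2, 3 and 4. These are 758, 475 and 594 CPM in WT and 380, 418 and 358 CPM in KO. All 3 KO libraries lay below all 3 WT libraries, as 33.2% of the tested genes did, and the WT libraries spread far more widely than the KO libraries. The coefficient of variation was 23.3% in WT and 7.87% in KO. The closest libraries across the genotypes were WT replicate 3 and KO replicate 3. The call was lost without KO replicate 2 (-0.61, adjusted p = 0.0559) and without KO replicate 4 (-0.58, adjusted p = 0.0556), and the adjusted p ran from 0.000622 to 0.0559 over 18 alternatives. Among all genes tested, 67.4% had a change no larger in size than that of Mcl1, and 21.1% fell further.

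Markers of other blood cells and genes of the immediate early response also differed between these libraries. Within WT the neutrophil marker sum followed the order of Mcl1, at 42477 CPM in replicate 1, 30571 CPM in replicate 4 and 17412 CPM in replicate 3. Within KO it did not, since KO replicate 4 had the highest neutrophil sum (7241 CPM) and the lowest Mcl1, and KO replicate 2 the lowest sum (1424 CPM). All 17 neutrophil markers fell and none was at 0, with a median of -2.95, as did all 14 monocyte markers, with a median of -2.03. The number that fell was 14 or more of 17 and 12 or more of 14 when any 1 library was left out. Immediate early and stress genes, a list of 16 added with earlier results of these data known, summed to 7404, 3703 and 3877 CPM in WT and to 2085, 2196 and 2083 CPM in KO. Their order over the libraries was that of Mcl1 within each genotype, with KO replicates 2 and 4 nearly equal. Of these 13 fell, with a median of -1.55. The part of these cells and genes in the level of Mcl1 was not tested.

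**Figure D2:**
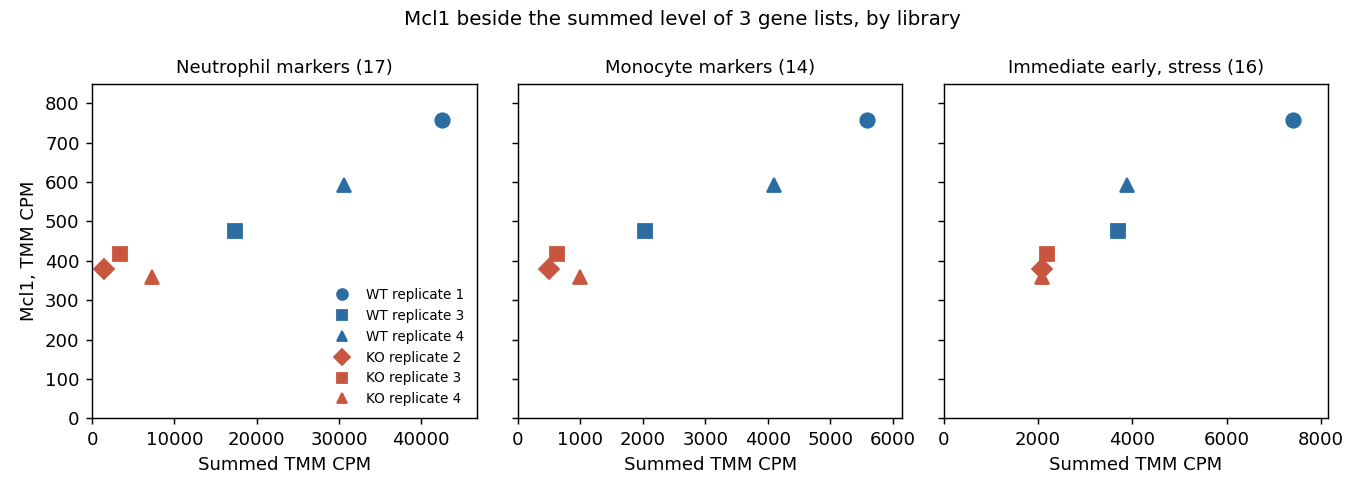
Mcl1 in TMM CPM (vertical) beside the summed TMM CPM (horizontal) of 17 neutrophil markers, 14 monocyte and macrophage markers and 16 immediate early and stress genes, with a point for each library. WT replicate 1 is highest on every axis, and the KO libraries cluster at 358 to 418 CPM of Mcl1.

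Bcl2 (ENSMUSG00000057329, chromosome 1 from 106538178 to 106714274, minus strand), the gene named in the series title, had 474, 501 and 396 counts in WT and 465, 672 and 631 in KO. In the same order of replicates the levels were 28.8, 22.1 and 22.6 CPM in WT, beside 22.2, 23.8 and 20.6 CPM in KO. WT replicate 1 stood above the other 5 libraries, which lay within 20.6 to 23.8 CPM. KO over WT was -0.14 on the log2 scale (SE 0.13, edgeR adjusted p = 0.387), and the 95% interval of -0.44 to 0.16 corresponds to a fold of 0.737 to 1.12.

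Bcl2l1 (ENSMUSG00000007659, chromosome 2 from 152780668 to 152831728, minus strand) had 2049, 3053 and 2574 counts in WT and 2986, 3560 and 4599 in KO. Its levels were 124, 134 and 147 CPM in WT and 143, 126 and 150 CPM in KO. The groups overlapped over nearly their whole range. On the log2 scale KO over WT was 0.05 (SE 0.10, edgeR adjusted p = 0.711), with a 95% interval of -0.18 to 0.27, a fold of 0.882 to 1.21, and its sign turned under 3 of the 18 alternatives.

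Bcl2l2 (ENSMUSG00000089682, chromosome 14 from 54883377 to 54888234, plus strand) had 241, 300 and 245 counts in WT and 302, 412 and 371 in KO. Its levels were 14.6, 13.2 and 14.01 CPM in WT and 14.4, 14.6 and 12.1 CPM in KO, again overlapping. KO over WT was -0.02 in log2 (SE 0.12, edgeR adjusted p = 0.872), with a 95% interval of -0.30 to 0.25, and its sign turned under 5 of the 18 alternatives. For Bcl2l1 and Bcl2l2 the intervals hold changes of either sign.

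The A1 genes were close to the limit of counting. Bcl2a1d (ENSMUSG00000099974, chromosome 9 from 88723285 to 88731914, minus strand) had 20, 9 and 22 counts in WT and 6, 5 and 19 in KO, or 1.21, 0.396 and 1.26 CPM against 0.287, 0.177 and 0.620 CPM. WT replicate 3 lay below KO replicate 4, so the groups overlapped. The fitted difference was -1.32 in log2 (SE 0.59, edgeR adjusted p = 0.0968), with a 95% interval of -2.71 to 0.07. Leaving out WT replicate 3 took it past the threshold (-1.72, adjusted p = 0.0235), as did leaving out KO replicate 4 (-1.99, adjusted p = 0.0481), and the adjusted p ran from 0.00578 to 0.253 over 16 alternatives.

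Bcl2a1a (ENSMUSG00000102037, chromosome 9 from 88956900 to 88962419, plus strand) had 15, 4 and 5 counts in WT and 5, 8 and 8 in KO. Bcl2a1b (ENSMUSG00000089929, chromosome 9 from 89199209 to 89207827, plus strand) had 1 count in each library except KO replicate 4, which had 0. These are sums of 3 and 2 counts, at or under the floor, so no fold is given. Summed over the 3 copies, which does not depend on how reads were split among them but still lacks reads left unassigned, A1 had 36, 14 and 28 counts in WT and 12, 14 and 27 in KO. The summed row did not pass, at -1.12 (SE 0.48, adjusted p = 0.0876). Because of the shared windows above, the A1 counts are uncertain and their level may be understated.

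Dividing counts by gene length put the members in order. With the union of annotated exons as the length, levels in WT were 178 ± 41.6 CPM per kb for Mcl1, 29.5 ± 2.49 for Bcl2l1, 3.13 ± 0.159 for Bcl2l2 and 2.67 ± 0.406 for Bcl2 (mean ± SD, n = 3). In KO they were 113 ± 8.88 CPM per kb for Mcl1, 30.5 ± 2.65 for Bcl2l1, 3.07 ± 0.313 for Bcl2l2 and 2.43 ± 0.177 for Bcl2. Mcl1, Bcl2l1 and the pair of Bcl2l2 and Bcl2 were separated by far more than the spread between libraries. Bcl2l2 and Bcl2 were near neighbours, with overlapping ranges in WT, and Bcl2 was the higher of the pair when counts were not divided by length or were divided by coding length. On this scale Mcl1 stood at percentile 97.3 to 98.7 of the tested genes in the 6 libraries, Bcl2l1 at 85.2 to 88.9, Bcl2l2 at 35.8 to 39.9 and Bcl2 at 32.4 to 35.7.

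The share of each member in the family sum, which needs no scaling between libraries, showed the same order and moved with Mcl1. Mcl1 held 86.0% of the family in WT replicate 1, 79.7% in replicate 3 and 81.4% in replicate 4, beside 74.8%, 78.2% and 73.0% in the KO libraries. The genotypes did not overlap, by a margin that is small between WT replicate 3 and KO replicate 3. Bcl2l1 held 10.51%, 16.8% and 15.05% in WT and 20.9%, 17.6% and 22.8% in KO. Bcl2 held 1.25% ± 0.115 in WT and 1.62% ± 0.0503 in KO, and Bcl2l2 held 1.48% ± 0.213 and 2.05% ± 0.148 (SD, n = 3). Shares must sum to the whole, so the larger shares of Bcl2l1, Bcl2 and Bcl2l2 in KO accompany the lower level of Mcl1. Without Mcl1 the members summed to 37.0 ± 2.22 CPM per kb in WT and 36.7 ± 2.43 in KO. The choice of length moved the Mcl1 share to between 70.1% and 77.2% in WT and between 60.2% and 68.6% in KO, with no overlap between genotypes under any of the 5 alternatives of length and membership. A gene has the same length in every library, so these alternatives rest on the same counts and are not separate supports.

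**Figure D3:**
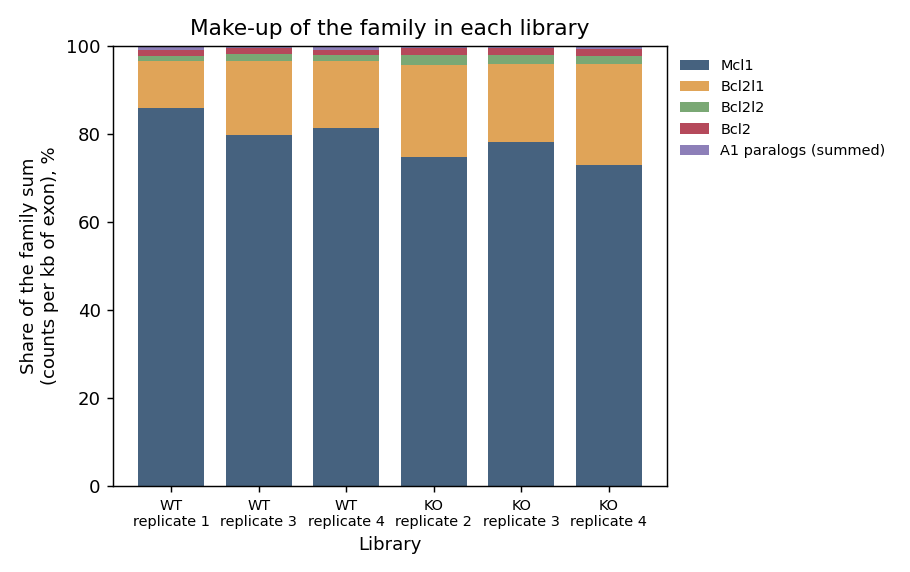
Share of each member in the family sum of counts per kb of exon (vertical, percent), as stacked bars with a bar for each library. Mcl1 makes up 79.7% to 86.0% in WT and 73.0% to 78.2% in KO, and the rest is mainly Bcl2l1.

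Ratios between members within a library were compared with an exact two-sided permutation test over 4 ratios, where 3 against 3 libraries cannot go below p = 0.1. Bcl2 to Mcl1 per kb was 0.0142, 0.0173 and 0.0142 in WT and 0.0218, 0.0213 and 0.0214 in KO, higher in every KO library by 1.42-fold (exact p = 0.1, 0.2 after Benjamini-Hochberg adjustment). Bcl2l1 to Mcl1 was 0.122, 0.211 and 0.185 in WT and 0.280, 0.225 and 0.312 in KO, again without overlap, by 1.604-fold (exact p = 0.1, adjusted 0.2). Bcl2l1 to Bcl2 was 8.63, 12.2 and 12.98 in WT and 12.8, 10.6 and 14.6 in KO, overlapping (exact p = 0.6, adjusted 0.6). The ratio of summed A1 to Mcl1 also overlapped (exact p = 0.4, adjusted 0.533). None of the 4 ratios passed the threshold, which this number of libraries does not allow. Both ratios without overlap have Mcl1 as the denominator, and the levels of Bcl2 and Bcl2l1 themselves overlapped. By level, 64% of all tested genes had genotypes that did not overlap.

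The authors' deposited table gave values for 6 of the 7 members. In the authors' deposited table Mcl1 had a log2 fold change of -0.64 (FDR 0.00079), Bcl2 -0.12 (FDR 0.578), Bcl2l1 0.06 (FDR 0.7) and Bcl2l2 -0.0051 (FDR 0.983). The authors' deposited table listed Bcl2a1d at -1.36 (FDR 0.13) and Bcl2a1a at -0.76 (FDR 0.521).

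The genes whose level across the 6 libraries was most like each member were sought by Pearson's r of log2 CPM, among the 9255 or 9256 other tested genes that averaged 10 CPM or more. All genes were compared over the same 6 libraries, which differ in depth and in genotype, so these are descriptions only. Mcl1 was followed most closely by Tmem120a, Tprgl and Grb2, each at r = 0.996, and 1327 genes (14.3%) had an r of at least 0.9 with it. Among the genes nearest to Bcl2 were Thra and Gbp9 (r = 0.99 each), with 80 genes at 0.9 or above. Bcl2l1 was nearest to Mtfr2 (r = 0.99), Ptges3 and Chek1 (r = 0.98 each), with 35 such genes. Bcl2l2 was nearest to Gng2, Commd6 and Il1rap (r = 0.97 each), with 14 such genes. Bcl2a1d was nearest to Vps35, Pdik1l and Pdcl3, with 182 such genes. Gbp9, which like Bcl2 was highest in WT replicate 1, stood there at 77.8 CPM and between 38.4 and 55.7 CPM in the other 5 libraries.

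Partners of the family were read from lists chosen for this description. Among the effectors, Bax and Bak1 did not pass (-0.01, adjusted p = 0.952, and -0.11, adjusted p = 0.207). Bok, a relative of both, fell by 0.35 (SE 0.10, adjusted p = 0.0208), a call lost without WT replicate 4, KO replicate 2 or KO replicate 3 (adjusted p = 0.0748 to 0.0865). Of 8 BH3-only genes 6 were tested, 0 rose, 3 fell and 3 did not pass, against backgrounds of 23.9% and 28.5%, with a median of -0.24. Bad, which binds BCL2 and BCL-XL, fell by 0.82 (SE 0.12) from 27.5 ± 2.49 to 15.6 ± 1.74 CPM, and Bbc3, which encodes PUMA, a p53 target, fell by 1.11 (SE 0.21) from 9.02 ± 1.66 to 4.19 ± 0.800 CPM. Bid fell by 0.42 (SE 0.11, adjusted p = 0.0154), lost without KO replicate 2 (adjusted p = 0.0795) or KO replicate 4 (0.0691). Pmaip1, which encodes NOXA, a partner of MCL1, did not pass at 0.21 (adjusted p = 0.432). It passed as higher in 3 of 18 alternatives. These were without WT replicate 1 (adjusted p = 0.00634), with limma-voom quality weights (0.0174), and with the replicate number as a block (0.00207). Hrk had 0 counts and Bik at most 4 in any library.

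**Figure D4:**
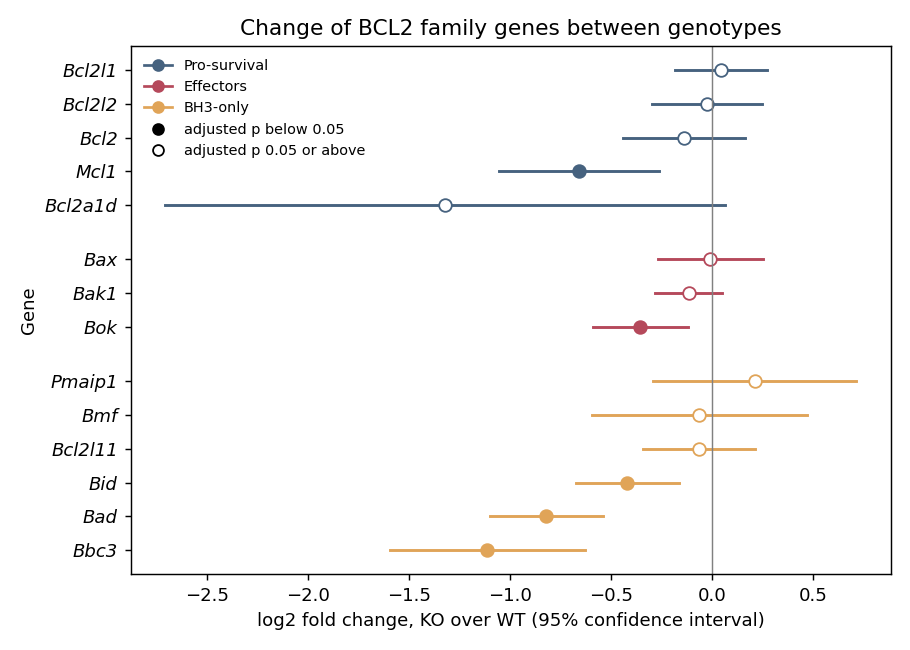
Log2 fold change of KO over WT (horizontal) with its 95% confidence interval for tested pro-survival, effector and BH3-only genes, filled where the adjusted p was below 0.05. Mcl1, Bok, Bid, Bad and Bbc3 are filled and lie below 0, and the interval of Bcl2a1d is the widest.

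Downstream, of 8 apoptosome and caspase genes 2 rose, 3 fell and 3 did not pass (median -0.03), near the background of 23.9% called higher and 28.5% lower. Htra2, a mitochondrial protease, rose by 1.12 (SE 0.08) from 26.3 ± 1.51 to 56.8 ± 2.34 CPM, and Diablo, which blocks inhibitors of caspases, rose by 0.64 (SE 0.16) from 5.86 ± 0.355 to 9.12 ± 1.47 CPM. Apaf1, the scaffold of the apoptosome, fell by 0.43 (SE 0.08) from 140.1 ± 6.18 to 103.7 ± 8.39 CPM. Xiap, an inhibitor of caspases named after its value was seen, fell by 0.33 and lost its call without WT replicate 4 or any 1 of the KO libraries (adjusted p = 0.0514 to 0.0807).

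Of 7 genes that act on MCL1 protein turnover 1 rose, 3 fell and 3 did not pass (median -0.18), against the background of 52.5% called. Huwe1 and Usp9x, named after their values were seen, fell just short of passing (edgeR adjusted p = 0.0549 and 0.0550). Huwe1 (0.31) passed as higher in 8 of 18 alternatives, and Usp9x (-0.18) as lower in 2. Trim17, a ubiquitin ligase, fell by 5.05 (SE 0.97), from 5.89, 1.19 and 1.03 CPM in WT to 0.0478, 0.106 and 0.0653 CPM in KO. Each KO library held at most 3 counts of Trim17, so its fitted size depends on the count added to both sides. Over the alternatives, which change other settings, it ran from -5.44 to -3.62. The latter was with the replicate number as a block, where replicates 3 and 4 alone give the genotype difference. It stood at -3.80 without WT replicate 1, which held 97 of the 142 counts in WT. Btrc fell by 0.31 and Marchf5 by 0.27, both ligase components, and Cul5 rose by 0.24. All 3 small changes lost their call when some single libraries were left out: Btrc without KO replicate 2 or 3 (adjusted p = 0.0681 and 0.0785), Marchf5 without WT replicate 4 or any 1 KO library (0.0759 to 0.104), and Cul5 without WT replicate 1 or 4 or KO replicate 3 or 4 (0.0796 to 0.127).

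Of 12 transcription factors reported to act on family genes 3 rose, 5 fell and 4 did not pass (median -0.13), against backgrounds of 23.9% called higher and 28.5% lower. Creb1, a factor acting on Bcl2, fell by 0.56 (SE 0.08) from 123 ± 8.57 to 83.5 ± 4.601 CPM. Stat3 fell by 0.68 (SE 0.15) from 175 ± 33.0 to 110 ± 12.7 CPM. Spi1, which encodes PU.1, a myeloid and B-lineage factor, fell by 1.17 (SE 0.20) from 198 ± 55.2 to 88.0 ± 6.96 CPM, in the order of the neutrophil marker sum in all 6 libraries. Nfkb1 rose by 0.31 (SE 0.08), a call lost without WT replicate 4 (adjusted p = 0.0664). The others past the threshold, named after their values were seen, were Rel (0.40), Relb (0.53), Rela (-0.28) and Stat5b (-0.29), each of which lost its call without 4 or 5 of the 6 libraries in turn (adjusted p = 0.0516 to 0.171). Without WT replicate 4, 0 of the 12 rose and 3 fell.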

How the data were processed

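The authors' count table, per the file headers on GRCm38.p6, holds whole-number counts per Ensembl gene, and the submitters' processing notes name GRCm38 and mm10. Aligner, counter, read length and strand setting were not given in the sources used here. Both deposited tables named for FPKM and TPM hold CPM: all 332922 values of each equal the count over the library total, scaled as CPM (tolerance 0.001), with no length correction, and 100% of values gave whole reads, whose test called the same number of genes (7599). The deposited table's gene length in bases (another unit) equalled the longest annotated transcript for 9985 of 14481 tested genes. The authors' comparison table gives a log2 fold change, a ratio (fold change) and p-values with FDR made with DESeq2, as its deposited companion table names it.

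Libraries were grouped by label. Genes passing filterByExpr (minimum count 10, total 15) were scaled by TMM and tested with edgeR 4.0.16 (quasi-likelihood, genotype alone, Benjamini-Hochberg over 14481 genes, threshold 0.05) in R 4.3.3, with limma 3.58.1 and DESeq2 1.42.0 as alternatives. An SE is the size of the log2 fold change over the square root of F. Lengths came from GENCODE M21. Likeness used log2 of CPM plus 0.01. The test was tested on simulated counts with known changes, and it missed most of the smallest changes set there. Intervals and floors cover counting error or library spread only. The members, lists and named genes (all members, up to 4 genes of smallest p per list, 3 most alike genes) were chosen with earlier results of these data known, and the stress gene list was added later. A few genes chosen this way are not reported here.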

Additional observations from a re-analysis of the deposited data

How the results depend on the processing

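The number of members past the threshold was 1 in 15 of 18 alternatives, 2 with limma-voom quality weights (Mcl1 and Bcl2a1d), and 0 to 2 when single libraries were left out, 0 without KO replicate 2. Without KO replicate 4 the single call was Bcl2a1d in place of Mcl1. Not all of the 18 alternatives could differ from the main fit. Counts recovered from the CPM values were the same counts, and summing the A1 copies left the counts of the other members as they were. Mcl1 stayed negative throughout, from -0.81 to -0.46. With the replicate number as a block, which the labels do not tie to shared animals, Mcl1 stood at -0.46 (adjusted p = 0.0105), Bcl2 at -0.01, and 6767 genes and 1 member passed. WT and KO share only numbers 3 and 4, so the block fit took the genotype difference from those replicates alone. WT replicate 1, with the highest Mcl1, and KO replicate 2 did not enter that difference. Deviations of the libraries that share number 3 or 4 correlated at 0.03 and 0.16. All-gene calls ran from 5847 to 8327 without single libraries. With library totals only, the median of all genes moved by 0.11 on the log2 scale, 56.5% of calls were higher in KO against 45.6%, and Mcl1 stood at -0.54. By library totals 0 of 3 effectors fell, 2 turnover genes rose and 1 fell, 3 transcription factors rose and 3 fell, and the median of the apoptosome list turned to 0.08.

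Small values changed sign. Bcl2l1 stood at -0.059 with quality weights, -0.031 with the block, and from -0.015 (without WT replicate 1) to 0.134 without single libraries. Bcl2l2 stood at 0.034 with upper-quartile factors, 0.088 with library totals, 0.035 with no filter, and from -0.059 to 0.086 without single libraries, above 0 without WT replicate 1 (0.0071) and KO replicate 4. The log2 difference of Bcl2l1 to Bcl2 ran from -0.0026 (without WT replicate 1) to 0.301. The mean Mcl1 share was 82.4% in WT and 75.4% in KO, and moved to 73.8% and 64.5% by the longest transcript, 70.1% and 60.2% by coding length, 77.2% and 68.6% with no length, and 72.7% and 63.2% by the deposited length, an alternative added after the data were seen. The cause is the length used. As an 8mer, Bcl2 and Mcl1 held 0 seed matches, as a 7mer-A1 Bcl2 held 1 and Mcl1 0, and as a 6mer Bcl2 held 3 and Mcl1 and Bcl2l1 1 each. The A1 genes had few counts in every library, and their summed counts gave a 95% interval from -2.27 to 0.02 on the log2 scale.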
